A study of Mus musculus with 32 samples.

Results

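The transcripts of 10 genes were followed in mouse dendritic cells: the 5 NF-kappaB subunits (Nfkb1, Nfkb2, Rel, Rela and Relb) and 5 IkB proteins (Nfkbia, Nfkbib, Nfkbie, Nfkbiz and Bcl3). Members were taken by gene symbol from 22216 genes, and all 10 were measured above 1 RPKM in each of the 32 libraries. RPKM is a read density scaled to the length of the gene and the depth of the library. The cells were grown from bone marrow with GM-CSF, a growth factor that yields dendritic cells, were harvested on day 9, and came from C57BL/6 mice labelled wild type (WT) or Lmp7-/-Mecl1-/- (dKO). Lmp7 and Mecl1 are the protein names of Psmb8 and Psmb10, catalytic subunits of the immunoproteasome, the proteasome form of immune cells. The bacterial product lipopolysaccharide (LPS), which activates dendritic cells, was added at 1 µg/mL for 0, 1, 2 or 6 h, giving 4 WT and 4 dKO groups of 4 libraries each. The labels name no age and do not say whether libraries came from separate animals or cultures, so that p-values measure only the spread between libraries, which may be technical. Nothing in the labels restricts the deletion to 1 cell type, and the cultured cells are bulk samples, in which fewer cells of a type and less RNA per cell cannot be told apart.

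NF-kappaB is a family of transcription factors that bind DNA as dimers of the subunits. In resting cells IkB proteins hold the dimers in the cytoplasm, and after LPS binds its receptor TLR4 an IkB kinase marks IkB for ubiquitination and destruction by the proteasome, which frees the dimers to enter the nucleus. The genes then switched on include several that encode IkB proteins and subunits themselves, so the transcripts of the family are a common readout of NF-kappaB activity. The proteasome is thus an element of the pathway, and the comparison of genotypes asks whether activation differed without 2 of its immune-type catalytic subunits. RNA does not measure IkB protein or the nuclear entry of the dimers.

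The promoters of several members carry the kappaB consensus, the 10-base motif that NF-kappaB dimers bind. In RefSeq promoter windows (build GRCm38.p6, 250 bases before to 50 after a transcript start), searched on both strands, 7 members matched by symbol (Nfkb2, Rel, Rela, Nfkbia, Nfkbib, Nfkbie and Bcl3), and 5 of these held at least 1 match in a window. Over all genes with a window, 9.55% of 27025 did, and 8.46% of 32851 windows. Rela and Nfkbib held none in theirs. A match is a description of letters and not of binding. The stretches below show where the matches lie in the 5 members that hold one, in capitals, from 120 bases before the transcript start up to the base before it, and for Bcl3 to base 12 after it. Overlapping matches were merged into 1 run of capitals, and matches in 2 further Nfkb2 windows are not shown.
Nfkb2, chr19:46304617-46304736, plus strand: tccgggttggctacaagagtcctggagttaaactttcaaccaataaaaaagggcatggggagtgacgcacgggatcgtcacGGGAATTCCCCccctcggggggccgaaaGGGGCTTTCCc
Rel, chr11:23770970-23771089, minus strand: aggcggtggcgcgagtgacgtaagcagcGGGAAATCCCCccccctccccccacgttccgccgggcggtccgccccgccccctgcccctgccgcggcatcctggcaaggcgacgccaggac
Nfkbia, chr12:55492648-55492767, minus strand: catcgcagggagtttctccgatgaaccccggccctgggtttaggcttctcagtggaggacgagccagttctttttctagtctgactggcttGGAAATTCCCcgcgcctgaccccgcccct
Nfkbie, chr17:45555580-45555699, plus strand: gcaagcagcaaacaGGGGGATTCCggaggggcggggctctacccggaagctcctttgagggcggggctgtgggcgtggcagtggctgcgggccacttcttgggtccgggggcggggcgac
Bcl3, chr7:19822744-19822875, minus strand: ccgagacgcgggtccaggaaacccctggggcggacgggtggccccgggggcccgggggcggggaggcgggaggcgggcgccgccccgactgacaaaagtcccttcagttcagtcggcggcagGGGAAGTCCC

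The libraries were checked before the comparisons. Psmb8 lay at 150.3 to 312 RPKM in WT and at 2.67 to 7.42 RPKM in dKO, and Psmb10 at 41.6 to 131 against 2.37 to 17.1 RPKM, as the genotype labels state. Depth was 1.27 to 1.87 Gb of sequence aligned to genes. Each of the 8 dendritic cell markers reached 1 RPKM in at least 1 library (summed 9319 to 16577 RPKM). All 9 lymphocyte markers stayed under 1 RPKM in every library. The 5 mast cell and basophil markers summed to at most 13.3 RPKM (Fcer1a under 1 throughout) and the 6 stromal markers to at most 6.22 (4 of 6 under 1 throughout). Spike-in controls took 0.0943% to 0.127% of the aligned signal in the 16 dKO libraries and 0.133% to 0.328% in the 16 WT libraries, without overlap, and the part of this difference in the results was not tested. Over 11069 genes that are neither members nor in the pathway lists, the 16 WT libraries and 11 dKO libraries correlated most with the WT mean of their own time (r 0.994 to 0.996 and 0.972 to 0.980). The other 5 dKO libraries lay nearest to another time: 0 h replicate 2 to 1 h, 1 h replicate 2 to 2 h, 2 h replicate 2 to 0 h, 2 h replicate 4 to 6 h, and 6 h replicate 4 to 2 h. They were kept under their labels, none was moved, and comparisons of the members that use dKO libraries are given with all 32 libraries and without these 5, which leaves 3, 3, 2 and 3 dKO libraries at 0, 1, 2 and 6 h.

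The members themselves showed the same displacement. Nfkbiz, which encodes the nuclear IkB-zeta, a cofactor needed for a second wave of inflammatory genes, had the widest range as a ratio of highest to lowest. In WT it was at 3.47, 2.75, 4.18 and 3.07 RPKM at 0 h, at 590.2, 593, 620.1 and 565 at 1 h, at 292, 325, 311 and 289.8 at 2 h, and at 80.5, 90.8, 85.3 and 78.2 at 6 h. The 4 WT times did not overlap. In dKO it was at 2.94, 634, 3.15 and 2.19 RPKM at 0 h, at 633, 314, 650.2 and 657 at 1 h, at 330.4, 3.20, 301 and 90.3 at 2 h, and at 86.4, 85.2, 89.6 and 251 at 6 h. The value out of range in each dKO time belongs to a library named above, and the remaining dKO values lay close to the WT values of the same time.

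**Figure D1:**
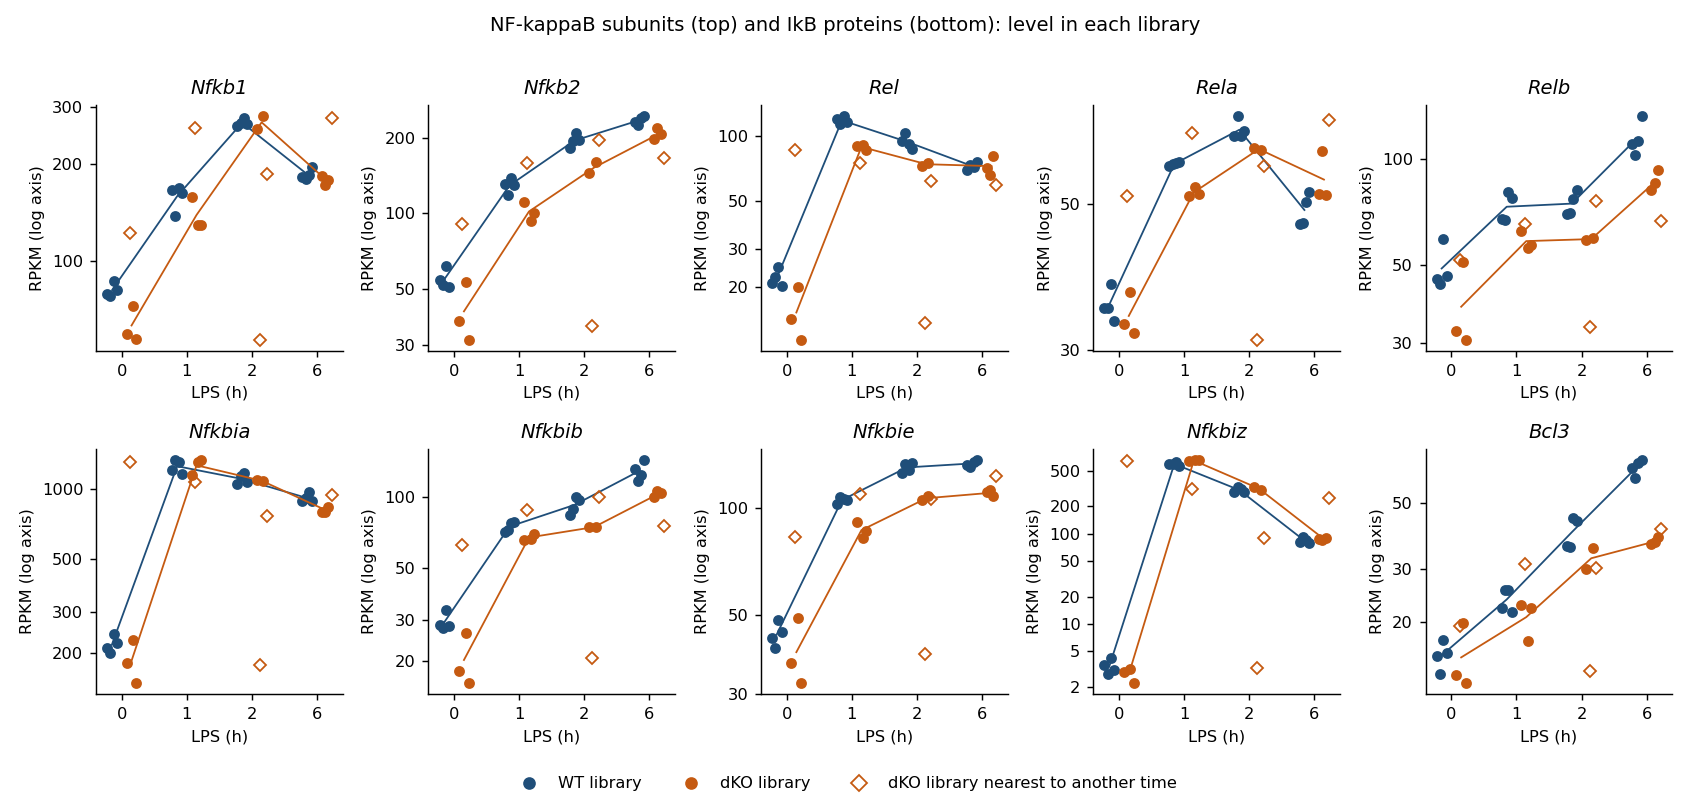
RPKM (log axis) of the 5 subunits (top) and the 5 IkB proteins (bottom) in each of the 32 libraries against hours of LPS, WT in blue and dKO in orange. Open diamonds are the 5 dKO libraries whose other genes lay nearest to another time, and lines join means of the other libraries. Nfkbiz ranged from 2.19 to 657 RPKM, and the 4 dKO values of Bcl3 at 6 h, 36.4 to 41.0 RPKM, lay below all 4 WT values, 60.4 to 69.8.

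Before LPS the order of WT levels was headed by an inhibitor. RPKM is per gene length, so levels can be set beside each other. Nfkbia stood at 218 ± 17.4 RPKM (SD, n = 4, as in all WT means here), followed by Nfkb1 at 81.0 ± 3.76, Nfkb2 at 54.8 ± 5.02, Relb at 49.0 ± 6.99, Nfkbie at 44.2 ± 3.42, Rela at 35.1 ± 1.92, Nfkbib at 29.3 ± 2.48, Rel at 21.9 ± 2.03, Bcl3 at 15.4 ± 1.61 and Nfkbiz at 3.37 ± 0.616. Nfkb2 overlapped Relb, and Relb overlapped Nfkbie. The other neighbours in this order did not overlap. At 6 h Nfkbia still led with 912 ± 35.8 RPKM, Nfkb2 (235 ± 8.28) had passed Nfkb1 (185 ± 6.77), and Rela was the lowest member at 48.9 ± 2.71.

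In WT cells every member rose at 1, 2 and 6 h of LPS. All 10 of 10 were called higher at each time (limma, adjusted p under 0.05 with Benjamini-Hochberg over the 11154 genes tested), where 6.84%, 11.2% and 14.9% of all genes tested were called higher. The median of all genes moved by -0.42, -0.73 and -0.65 on the log2 scale. Under median-of-ratios scaling, which sets those medians near 0, the members rose by more, Rela for example by 1.15 in place of 0.47 at 6 h, and all 10 stayed called at each time. Log2 changes are of RPKM + 0.5, which understates changes of low values.

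Among the subunits Rel had the largest log2 change at 1 and 2 h, and Nfkb2 at 6 h (2.09). Rel (mm9, chr11:23641729-23670970) encodes c-Rel, a subunit with a transactivation domain that is used strongly in activated dendritic cells and lymphocytes. It was at 20.8, 22.1, 24.7 and 20.1 RPKM at 0 h and at 120, 113, 123 and 116 at 1 h, with no overlap between the times. Its log2 change was 2.40 ± 0.42 (SE) at 1 h, then 2.07 at 2 h and 1.71 at 6 h. Rela (chr19:5637490-5648130), the subunit of the classical heterodimer, rose by 0.70 ± 0.15 at 1 h, 0.87 at 2 h and 0.47 at 6 h, and Relb rose by 0.58 ± 0.18, 0.61 and 1.22.

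The 2 precursor genes rose over longer times. Nfkb1 (chr3:135247619-135354511), whose product is processed to a subunit without a transactivation domain, went from 81.0 ± 3.76 to 158 ± 14.2 RPKM at 1 h and to its highest mean, 268 ± 6.78, at 2 h. Nfkb2 (chr19:46379227-46386576), whose precursor also acts as an inhibitor until it is processed in the alternative pathway, rose at each time, to 129 ± 8.35, 195 ± 10.9 and 235 ± 8.28 RPKM. Relb (chr7:20191571-20214787), the partner of processed Nfkb2, was at 73.4 ± 6.93 and 74.9 ± 5.75 RPKM at 1 and 2 h, which overlapped, and at 115 ± 12.6 at 6 h.

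Among the IkB members Nfkbiz (chr16:55811490-55838754) and Nfkbia had their highest mean at 1 h. Nfkbiz rose 155-fold at 1 h (log2 change 7.27 ± 1.16, adjusted p = 8.6e-05, higher in 4 of 4 libraries), and stood at 6.31 and 4.46 above 0 h on the log2 scale at 2 and 6 h. Nfkbia (chr12:56590396-56593634) encodes IkB-alpha, the inhibitor that is destroyed and made anew in each activation cycle. It was at 209, 200.2, 241 and 221 RPKM at 0 h and at 1203, 1323, 1302 and 1157 at 1 h, a 5.72-fold rise, and was still 2.07 above 0 h on the log2 scale at 6 h.

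The other IkB members had their highest WT mean at 6 h. Nfkbib (chr7:29543270-29551543), encoding IkB-beta, rose by 1.34, 1.65 and 2.13 on the log2 scale. Nfkbie (chr17:45692665-45700117), encoding IkB-epsilon, rose by 1.24, 1.54 and 1.58, and its libraries at 2 and 6 h overlapped. Bcl3 (chr7:20393811-20408104) encodes a nuclear IkB protein that binds dimers of processed Nfkb1 or Nfkb2. It was at 15.3, 13.4, 17.3 and 15.7 RPKM at 0 h, at 22.3, 25.6, 25.4 and 21.6 at 1 h, at 35.9, 35.6, 44.5 and 43.5 at 2 h, and at 65.4, 60.4, 68.1 and 69.8 at 6 h. No 2 of these times overlapped, and its log2 change grew from 0.61 ± 0.20 to 1.34 and 2.06.

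The split between early and late members was tested as 6 h against 1 h. In WT Nfkb2 (0.86 ± 0.32), Relb (0.64 ± 0.18), Nfkbib (0.79 ± 0.33) and Bcl3 (1.46 ± 0.20) were higher at 6 h, against 19.7% of all genes, and Nfkbiz was lower (-2.82 ± 1.16), against 36.7%. In dKO with all libraries Nfkb2 (0.78) and Bcl3 (0.73) were called higher, against 17.4%. Without the 5 libraries 6 members were called higher in dKO (Nfkb1, Nfkb2, Relb, Nfkbib, Nfkbie and Bcl3), against 29.6% of genes, and 3 lower (Rel, Nfkbia and Nfkbiz), against 48.0%. With all 32 libraries leaving out any 1 of the 8 WT libraries of this comparison left 2 or 3 calls of the 5 in WT. In dKO leaving out 1 of 8 gave 1 to 3 calls. With the replicate number as a block 2 members were called in WT, 2 higher and 0 lower, and 1 in dKO. Without the 5 libraries all 10 members were called in WT, 6 higher and 4 lower, against 29.5% and 49% of all genes. This fit used the same WT values, with an SE for Nfkbiz of 0.09 in place of 1.16.

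The dKO cells also raised all 10 members. With all libraries each was called higher at 1, 2 and 6 h, against 5.82%, 9.17% and 14.7% of all genes, and without the 5 libraries again 10 of 10 at each time, against 9.48%, 13.9% and 18.8%. Sizes differed between the fits: Nfkbiz rose by 5.48 at 1 h with all libraries and by 7.64 ± 0.10 without the 5, Nfkbia by 2.01 and 2.78 ± 0.10, and Rel by 1.86 and 2.55 ± 0.12. At 2 h with all libraries the count rested on single libraries, with 5 members called without dKO 0 h replicate 1 or 4 or without dKO 2 h replicate 1, 3 or 4. Fitting the groups of that comparison alone gave 0 calls, and testing with no filter on low values gave 6.

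Whether the LPS response itself differed by genotype was tested as dKO response minus WT response. With all 32 libraries limma called 0 of 10 members at 1 h, 0 at 2 h and 0 at 6 h, against 0.0359%, 0.305% and 0.923% of all genes. At an unadjusted p under 0.05 there were 0 members at 1 h, 4 at 2 h (Rela, Nfkbie, Nfkbiz and Bcl3, all with a smaller response in dKO) and 1 at 6 h (Bcl3). The intervals of these fits were wide: for Nfkbiz at 2 h the difference was -3.66 ± 1.64. In that group 1 library labelled 2 h had Nfkbiz at 3.20 RPKM.

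The intervals were narrower without the 5 libraries. Again limma called 0 of 10 members at 1 h and 0 at 2 h, against 1.81% and 5.64% of genes, with 2 members at an unadjusted p under 0.05 at 1 h (Nfkbib and Nfkbiz) and 2 at 2 h (Nfkb1 and Nfkbiz), all with a larger response in dKO. For Nfkbia the difference was 0.26 at 1 h (95% interval -0.01 to 0.53), 0.23 at 2 h (-0.06 to 0.51) and 0.07 at 6 h (-0.20 to 0.34). For Nfkbiz it was 0.37 at 1 h (0.10 to 0.65), 0.30 at 2 h and 0.30 at 6 h, with adjusted p = 0.21, 0.27 and 0.11 (limma). For Nfkbia at 1 h the upper end, 0.53, stands beside a rise of 2.52 in WT. These intervals do not show that the genotypes respond alike.

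At 6 h 2 members differed in response without the 5 libraries. Bcl3 rose less in dKO, by 1.30 ± 0.13 against 2.06 ± 0.12 in WT, a difference of -0.77 ± 0.18 (95% interval -1.13 to -0.40, limma adjusted p = 0.0028). Of all genes 10.5% had a smaller response in dKO. The Bcl3 call held in each of the 14 fits that left out 1 more library (-0.89 to -0.56), under median-of-ratios scaling (-0.70), and with all 32 libraries when only the 4 groups of the comparison were fitted (adjusted p = 0.048, limma), while the fit to all groups and libraries gave -0.82 ± 0.28 with adjusted p = 0.24.

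Rel rose more in dKO at 6 h without the 5 libraries, by 2.25 ± 0.12 against 1.71 ± 0.10, a difference of 0.54 ± 0.16 (limma adjusted p = 0.015), where 9.81% of genes had a larger response. Its levels at 6 h lay within their spread, 72.4 ± 7.59 (n = 3) against 72.5 ± 2.62 RPKM, while before LPS they were 15.2 ± 4.42 (n = 3) against 21.9 ± 2.03. The call was lost without dKO 0 h replicate 4 (adjusted p = 0.061) and had the opposite sign with all 32 libraries (-0.15). Leaving out dKO 0 h replicate 3 raised the count of differing members from 2 to 7, WT 6 h replicate 4 to 4, and leaving out dKO 0 h replicate 4 lowered it to 1. Without dKO 0 h replicate 3 the count was 1 in place of 0 at 1 h and 3 in place of 0 at 2 h.

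**Figure D2:**
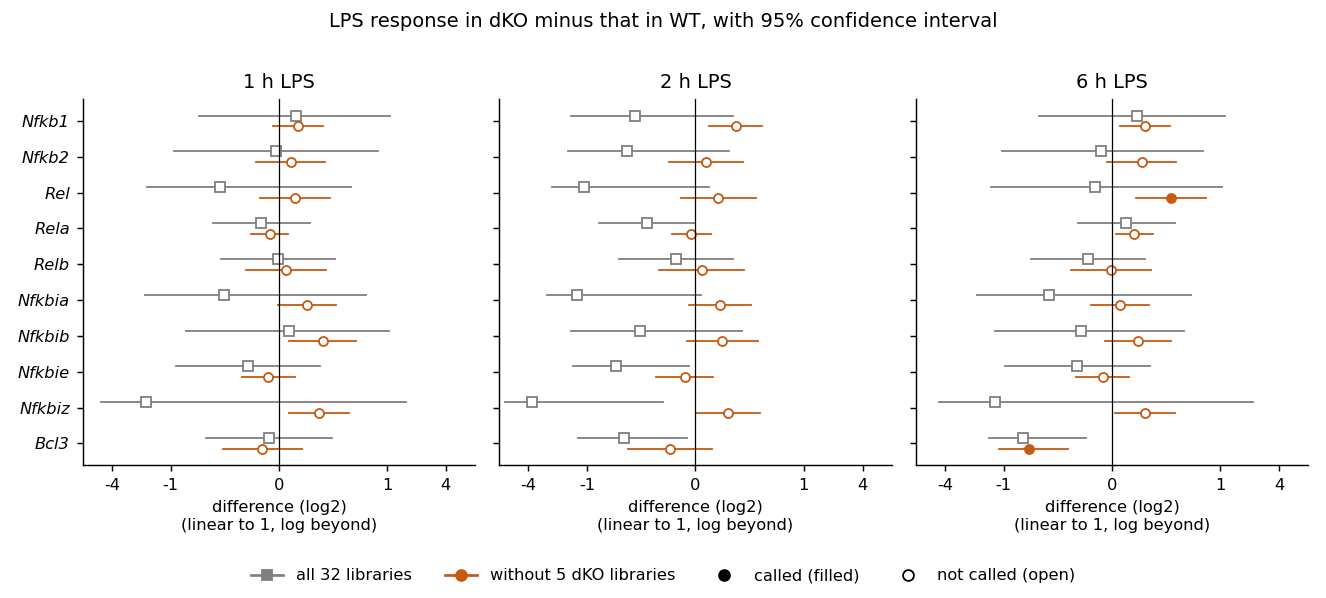
Difference in LPS response, dKO minus WT, of each member at 1, 2 and 6 h on the log2 scale (linear to 1, log beyond), with 95% confidence intervals, for all 32 libraries (grey squares) and without 5 dKO libraries (orange circles). Filled symbols passed an adjusted p of 0.05: Bcl3 (-0.77) and Rel (0.54) at 6 h without the 5 libraries.

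Levels were then compared between the genotypes at each time. Bcl3 was called lower in dKO at 6 h with and without the 5 libraries. It was at 36.4, 36.9, 38.5 and 41.0 RPKM in dKO against 65.4, 60.4, 68.1 and 69.8 in WT, without overlap. The 41.0 is from replicate 4, which lay nearest to 2 h, where WT Bcl3 was at 35.6 to 44.5. For that library genotype and time cannot be told apart. The log2 change was -0.78 ± 0.20 (limma adjusted p = 0.0077, lower in 4 of 4 libraries, exact two-sided permutation p = 0.0286, the smallest that 70 splits allow), and Bcl3 was the sole member called at 6 h, against 10.2% of genes called lower. It was -0.81 ± 0.12 without the 5 libraries, where dKO stood at 56.5% of WT. There the groups again did not overlap, as for 45.2% of all genes tested (exact two-sided permutation p = 0.0286, the smallest that 35 splits allow). The call held without any 1 of the 8 libraries at 6 h and was lost under median-of-ratios scaling with all 32 libraries (-0.62, limma adjusted p = 0.17), but not under that scaling without the 5 (-0.67).

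At earlier times Bcl3 did not give a stable difference. Before LPS it was at 13.3, 19.3, 19.8 and 12.4 RPKM in dKO against 13.4 to 17.3 in WT, with overlap. At 2 h, with 30.1, 13.7, 35.2 and 30.3 RPKM against 35.6 to 44.5, it was called lower with all libraries (-0.61 ± 0.20, limma adjusted p = 0.042, against 7.24% of genes), and not without the 5 (-0.28 ± 0.14, adjusted p = 0.13). The 2 h call was also lost without any 1 WT library of that time, without dKO replicate 2 of that time, and under median-of-ratios scaling. Leaving out dKO 2 h replicate 1, 3 or 4 gave 2, 4 and 4 member calls in place of 1.

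No member was called at 0 h or 1 h with all 32 libraries (limma, 0 of 10 each, 0 at an unadjusted p under 0.05), against 6.84% and 10.9% of genes called in either direction. At 0 h the dKO library nearest to 1 h had Nfkbia at 1300 RPKM, Rel at 85.9 and Nfkbib at 62.4, while the other 3 dKO libraries were at 148 to 226, 11.3 to 20.0 and 16.0 to 26.3.

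Several members were lower in dKO before LPS once the 5 libraries were left out. Nfkb1, Nfkb2, Rel, Relb, Nfkbia and Nfkbib were called lower at 0 h, 6 of 10 members against 19.5% of genes, and under median-of-ratios scaling Nfkb1, Nfkb2, Rel and Nfkbib were. Nfkbib was at 18.2, 26.3 and 16.0 RPKM in dKO against 28.4, 27.8, 33.0 and 28.0 in WT, without overlap (-0.56 ± 0.10, limma adjusted p = 2.4e-04). Rel was at 14.2, 20.0 and 11.3 RPKM against 20.8, 22.1, 24.7 and 20.1, also without overlap (-0.55 ± 0.11, limma adjusted p = 4.9e-04). Nfkb1 was at 59.4, 72.3 and 57.2 RPKM against 78.9, 77.8, 86.2 and 81.2 (-0.37 ± 0.08, limma adjusted p = 8.5e-04). These 3 were the members whose 0 h groups did not overlap, as was so for 36.7% of all genes tested, and dKO replicate 3 was the highest dKO library for each. With dKO replicate 4 also left out, these 3 remained called. Leaving out 1 more library at a time, the Nfkbia call was lost in 5 of 7 fits (-0.40 to -0.10), the Relb call in 3 of 7 and the Nfkb2 call in 1 of 7.

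Part of the family was also lower at the LPS times in this fit. At 1 h Nfkb2, Rel, Relb and Nfkbie were called lower in dKO, 4 of 10 against 29.5% of genes, and none of these was called under median-of-ratios scaling, where Nfkbiz was called higher (0.26). Rel was at 89.5, 90.8 and 86.4 RPKM against 120, 113, 123 and 116 in WT, without overlap, as was so for 42.5% of all genes tested. At 2 h Nfkb2, Rel, Nfkbib and Nfkbie were called lower, 4 of 10 against 23.9%, from 2 dKO libraries, and 0 were under median-of-ratios scaling. Leaving out 1 of those 2 left 0 calls, while leaving out WT 2 h replicate 2, 3 or 4 left 2, 1 and 2. At 1 h leaving out dKO replicate 3 left 1 call. Of the 7 fits that left out 1 more library of 1 h, the Relb call held in 2 (limma adjusted p up to 0.14). The Nfkb2 and Nfkbie calls each held in 6 and the Rel call in 7.

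At 6 h without the 5 libraries Relb, Nfkbib, Nfkbie and Bcl3 were called lower, 4 of 10 against 33.1% of genes, and Rela was called higher, against 13.9%. Under median-of-ratios scaling Bcl3 stayed lower and Rela higher (0.29), and the other 3 were not called. The median of all genes between the genotypes was -0.06, -0.11, -0.09 and -0.13 at 0, 1, 2 and 6 h in this fit, beside -0.39 ± 0.13 for Relb, -0.32 ± 0.10 for Nfkbib and -0.27 ± 0.08 for Nfkbie at 6 h. Leaving out WT replicate 4 or dKO replicate 1 of 6 h left 3 of the 5 calls. The Rela value of 0.15 without scaling ran from 0.08 to 0.19 when 1 more library was left out, and its call was lost in 3 of 7 such fits (limma adjusted p up to 0.31).

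Relb was lower in dKO at each time under both choices of libraries. With all libraries it was at 62.7, 65.6, 56.0 and 57.1 RPKM in dKO against 67.7, 67.4, 81.0 and 77.5 in WT at 1 h. At 6 h it was at 81.9, 85.6, 93.5 and 66.7 against 110, 103, 113 and 133. The groups overlapped at neither time, as was so for 32.1% and 31.1% of all genes tested. They include dKO 1 h replicate 2 and 6 h replicate 4, which lay nearest to 2 h. Without the 5 libraries Relb again did not overlap at 1 or 6 h, against 42.5% and 45.2% of genes. With all libraries the exact two-sided permutation p was 0.0286 at both times, again the smallest possible. Limma did not call Relb at either (adjusted p = 0.38 and 0.070). Its difference was -0.27, -0.28, -0.45 and -0.49 at 0, 1, 2 and 6 h with all libraries and -0.39, -0.32, -0.33 and -0.39 without the 5, and its LPS response did not differ by more than 0.07 in the latter fit. Median-of-ratios scaling brought the differences to -0.06, -0.08, -0.53 and -0.32 with all libraries and to -0.30, -0.19, -0.19 and -0.25 without the 5, and Relb was called at no time under that scaling.

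At 6 h the 4 dKO and 4 WT libraries did not overlap, with dKO lower, for 5 members: Nfkb2, Relb, Nfkbib, Nfkbie and Bcl3. Groups did not overlap for 31.1% of all genes tested at that time, in either direction. The 4 dKO libraries include replicate 4, which lay nearest to 2 h. Without it these 5 members and Nfkbia did not overlap, against 45.2% of genes. Nfkb2 was at 198, 218, 206 and 166 RPKM against 232, 225, 239.8 and 243, and Nfkbie at 110.5, 112, 108 and 123 against 131, 130.3, 134 and 136. Of these 5 members limma called Bcl3 alone with all 32 libraries.

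**Figure D3:**
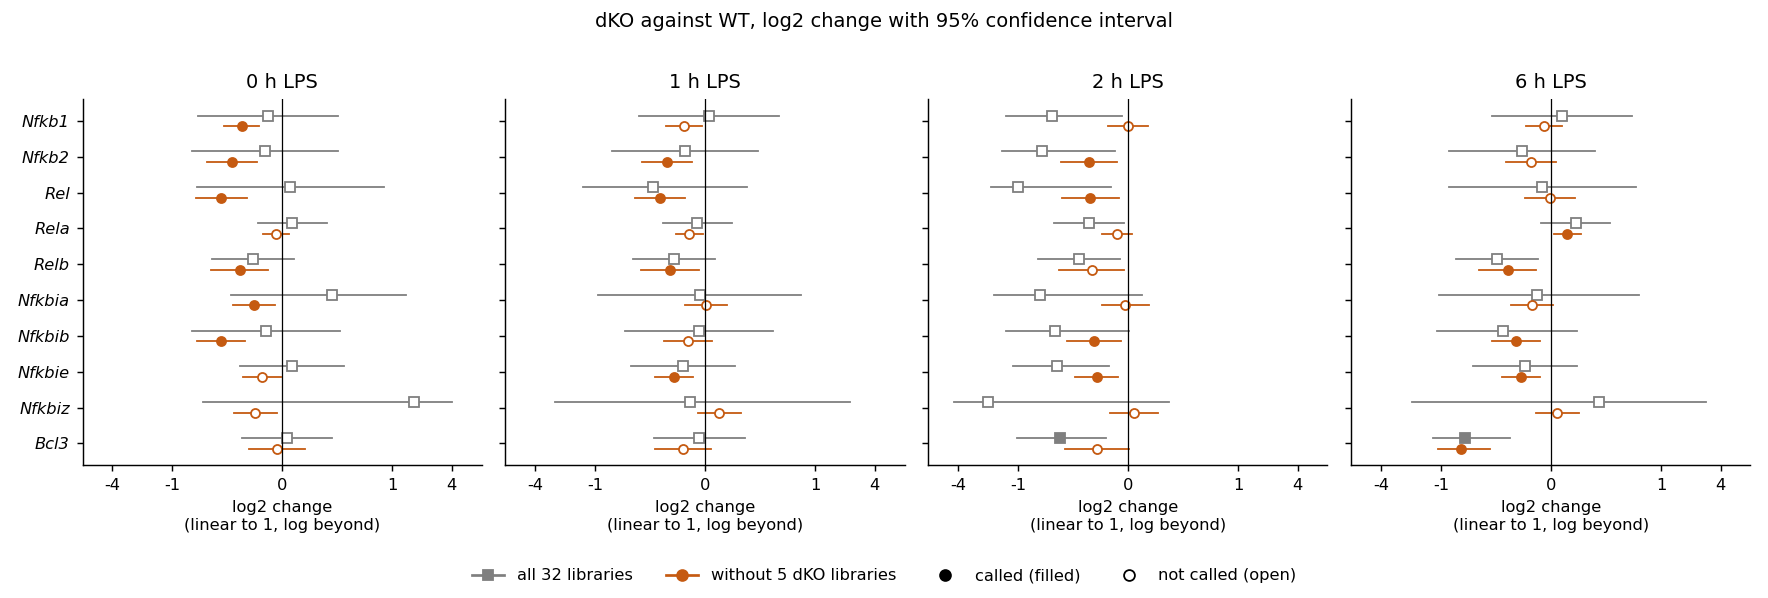
Log2 change between dKO and WT of each member at 0, 1, 2 and 6 h of LPS (linear to 1, log beyond) with 95% confidence intervals, for all 32 libraries (grey squares) and without 5 dKO libraries (orange circles). Filled symbols passed an adjusted p of 0.05: Bcl3 at 2 and 6 h with all libraries, and 6, 4, 4 and 5 members without the 5.

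Summed granulocyte markers were lower in dKO at each time without overlap. Summed macrophage markers overlapped at 0, 1 and 2 h and were higher in dKO without overlap at 6 h. The 6 granulocyte markers in the tables, of 7 listed, summed to 198 to 398 RPKM in dKO against 551 to 706 in WT at 0 h, 350.3 to 438 against 818 to 1231 at 1 h, 223 to 386 against 892 to 1158 at 2 h, and 214 to 391 against 406 to 619 at 6 h. The 6 macrophage markers in the tables, of 7 listed, summed to 785 to 1125 against 959 to 1033 at 0 h, 679 to 843 against 642 to 719 at 1 h, 624 to 1042 against 571 to 629 at 2 h, and 506 to 700.1 against 308 to 419 at 6 h. These dKO ranges include the 5 libraries nearest to another time. No marker of these 2 lists was under 1 RPKM everywhere. Their part in the genotype values of Bcl3, Relb and the other members was not tested.

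The sum of the 5 IkB transcripts over that of the 5 subunits describes how the 2 sides moved, with no test. In WT the ratio was 1.28 ± 0.0457 at 0 h, 3.82 ± 0.329 at 1 h, 2.39 ± 0.0462 at 2 h and 2.02 ± 0.0933 at 6 h. IkB transcripts thus outgrew subunit transcripts in the first hour and the ratio then fell. The IkB sum includes Nfkbiz and Bcl3, whose products are nuclear, so it does not measure cytoplasmic inhibitors alone. Nfkbiz made up 1.08% of that sum in WT at 0 h and 29.0% at 1 h. In dKO without the 5 libraries the ratio was 1.37 ± 0.0662, 4.75 ± 0.532, 2.62 ± 0.165 and 1.91 ± 0.0218 (n = 3, 3, 2 and 3). At 1 h the 3 dKO libraries were at 4.13, 5.02 and 5.09 against 3.55 to 4.30 in WT, which overlapped. Summed subunits at 1 h were at 473, 422 and 425 RPKM in these dKO libraries against 493 to 569 in WT, without overlap. Of single genes tested 42.5% did not overlap in that choice of libraries. With all 4 dKO libraries of 1 h the subunit sum ran from 422 to 621 RPKM and overlapped WT. The dKO ratio with all libraries was 2.34 ± 1.93, 4.21 ± 1.16, 2.16 ± 0.572 and 2.00 ± 0.166 at 0, 1, 2 and 6 h (n = 4 each).

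**Figure D4:**
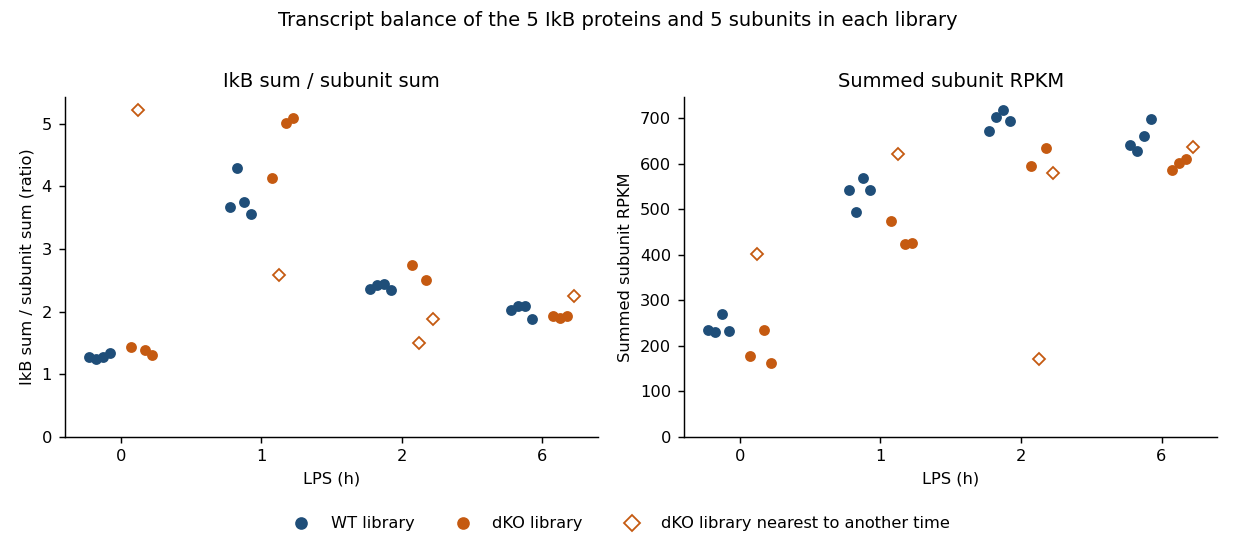
Summed RPKM of the 5 IkB proteins over that of the 5 subunits (left, ratio) and summed subunit RPKM (right) in each library against hours of LPS, WT in blue, dKO in orange and open diamonds for the 5 dKO libraries nearest to another time. The ratio was highest at 1 h, 3.55 to 4.30 in WT, and the dKO 0 h library nearest to 1 h had 5.22.

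Of 2 further IkB genes, Nfkbid, encoding the nuclear IkB-NS, rose in WT from 7.46 ± 0.850 to 136 ± 7.68 RPKM at 1 h and was at 77.8 ± 4.71 at 2 h. Without the 5 libraries it stood in dKO at 95.5 ± 3.29 RPKM (n = 3) at 1 h and 44.9 ± 1.53 (n = 2) at 2 h, lower by the limma test (-0.51 ± 0.08 and -0.78 ± 0.09), and its response at 2 h was smaller (-0.59 ± 0.12, adjusted p = 0.0023). With all 32 libraries that difference in response was -2.49 ± 0.78 and was not called (adjusted p = 0.18). Nfkbil1, a gene distantly related to the family, rose by 0.71 at 1 h in WT.

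Upstream of the members LPS moved genes both ways. Of 11 IkB kinase and related kinase genes 2 were higher and 4 lower at 1 h in WT. At 6 h 5 were higher and 4 lower. Of all genes 6.84% and 14.9% were called higher at these times, and 45.5% and 60.9% lower. The median of the list was -0.11 and 0.06. Map3k8, encoding the kinase Tpl2, rose by 1.57 at 1 h, and Ikbke, encoding the noncanonical kinase IKK-epsilon, by 1.83 at 6 h. Map3k14, encoding the NF-kappaB-inducing kinase of the alternative pathway, fell by 1.28 at 1 h. Of 17 LPS receptor and adaptor genes tested 8 were higher and 4 lower at 6 h in WT. Tlr4, the LPS receptor, fell by 2.49. Of 5 genes of the ubiquitin ligase that marks IkB, Fbxw11, a substrate adaptor, rose by 1.53 at 6 h and 3 (Skp1a, Rbx1 and Cul1) fell.

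Between the genotypes at 6 h without the 5 libraries, 3 of 11 kinase genes were higher and 4 lower in dKO, where 13.9% of all genes were higher and 33.1% lower. Map3k7, encoding TAK1, which activates the IkB kinase, was at 10.8 RPKM against 6.07 in WT (0.78 ± 0.07), and Map3k14 at 14.0 against 25.1 (-0.83 ± 0.18). Of 17 receptor and adaptor genes 5 were higher and 4 lower, with Tlr4 at 12.3 against 5.17 RPKM (1.18 ± 0.10). Of 5 ubiquitin ligase genes 1 was lower, Fbxw11 (-0.20 ± 0.05), and the other 4 were not called. With all 32 libraries 1 kinase gene was higher and 2 lower, 3 receptor genes higher and 1 lower, and 0 ligase genes called at 6 h. In that fit 4.55% of all genes were called higher and 10.2% lower.

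Downstream, 22 known NF-kappaB target genes were counted. In WT 20 were higher at 1 h and 22 at 6 h, against 6.84% and 14.9% of all genes, and none lower. Their median log2 change was 4.73 and 4.61 beside -0.42 and -0.65 for all genes. With all 32 libraries 0 of the 22 differed in response at 6 h. Without the 5, 9 had a larger response in dKO and 0 a smaller one, against 9.81% and 10.5% of all genes, with a median difference of 0.59 beside -0.04 for all genes. They included Cxcl10, a chemokine (1.84 ± 0.17), Ccl5, a chemokine (1.47 ± 0.20), Ptgs2, the inducible cyclooxygenase (1.32 ± 0.24) and Tnf (0.75 ± 0.15). Before LPS 13 of the 22 were lower and 1 higher in dKO in the same fit, against 19.5% and 6.71% of all genes. Among the lower were Ccl5 at 243 against 582 RPKM, Cd83 at 46.8 against 108 and Gadd45b at 23.6 against 49.2. At 6 h 8 were higher and 4 lower, against 13.9% and 33.1% of all genes. When all 32 libraries were used, 0 of the 22 were called between the genotypes at 0 h, where their median was 0.71, or at 6 h.

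A list of 12 regulators of the pathway was lower in part. The list includes Rnf31, Rbck1 and Sharpin, which promote activation, so its counts do not describe restraining genes alone. Without the 5 libraries 6 of the 12 were lower in dKO at 0 h and 8 at 6 h, 0 higher at either time. Of all genes 19.5% and 33.1% were lower. The list medians were -0.23 and -0.30 beside -0.06 and -0.13 for all genes. In the fit to all 32 libraries 1 was lower at 0 h and 3 at 6 h, against 5.91% and 10.2% of all genes. Traf1, an adaptor, was at 31.2 against 59.8 RPKM at 0 h (-0.97 ± 0.13), and Pdlim2, a ligase for nuclear Rela, at 2.89 against 6.13 at 6 h (-0.96 ± 0.10). Of 7 genes that depend on IkB-zeta 6 were tested. In WT all 6 were higher at 6 h, against 14.9% of all genes. Without the 5 libraries 0 were lower in dKO at 6 h and 3 were higher, against 13.9% of all genes: Saa3, Il12a and Il6 (1.27, 0.56 and 0.45). With all libraries none of the 6 was called between the genotypes at 6 h.

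The likeness of patterns was described over all 32 libraries, which share the LPS course. For each member the 3 genes with the highest Pearson correlation were taken. Nfkbiz was most like Tnfaip3, the feedback inhibitor A20 (r = 0.999), Tnf (0.997) and Cxcl2 (0.992). Nfkbia was most like Il1b (0.993), Dusp16 and Il23a, and Rel like Icam1 (0.983), Nfkbia and Ch25h. Nfkb2 was most like Cd40 (0.985), Cd70 and Plagl2, Nfkbib like Gadd45b (0.986), Nfkb2 and Cd70, and Nfkbie like Ehd1 (0.979), Marcksl1 and Plagl2. Relb was most like Traf1 (0.972), Fscn1 and Cx3cl1, Nfkb1 like Mtmr14 (0.982), and Rela like Peli1 (0.967). Bcl3 had the lowest highest value, with Dok1 (0.962). Between members r ran from 0.470 for Nfkbiz and Bcl3 to 0.983 for Nfkb2 and Nfkbib.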

How the data were processed

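RNA sequencing libraries of 32 samples were made from 4 µg of total RNA each with the TruSeq RNA kit, version 2, per the labels, and the submitters' processing notes name CASAVA 1.8.2 and mm9. The annotation release and the assignment of reads to genes are not given in the sources used here. The authors deposited 1 table per library with 22308 entries (22216 genes and 92 spike-in controls), each with an RPKM value scaled to length and library by the authors, and a deposited signal, read from its values alone as aligned bases and used only for depth (1.27 to 1.87 Gb). No read counts were at hand, so precision comes from the spread between libraries, and no 2 libraries were identical.

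Genes with RPKM of at least 1 in at least 4 libraries were tested: 11154, and 11114 without the 5 libraries. Values of log2(RPKM + 0.5) were modelled in limma (3.58.1, R 4.3.3) by the means of the 8 groups, with a trend of the variance on the level and two-sided p-values adjusted over all genes tested in a comparison (Benjamini-Hochberg) and a call under 0.05. On simulated data the fit was checked for recovery of known changes. The simulated spread was that of the WT libraries, with no displaced library, so the check does not cover the wider spread of the dKO groups. Single members were also compared by exact permutation. The members, gene lists and rules were chosen with earlier results of these data known, and leaving out the 5 libraries was chosen after the data were seen. All 10 members were tested and counted in every comparison, with values printed for some of them. From each pathway list up to 4 called genes with the smallest adjusted p are named. Equal numbers across the genotypes were not treated as pairs: 1 of 16 such WT and dKO pairs had a correlation of deviations over 0.1. Promoter sequences are RefSeq's, read from a table of GRCm38.p6, while gene positions are those of the deposited tables. Other pseudocounts, scaling, filters, sample sets, a replicate block and left-out libraries are alternatives. Python 3 scripts with pandas made the summaries.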

Additional observations from a re-analysis of the deposited data

Results flagged for a closer look

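In 10 of 80 member values by group, 1 library lay far from the other 3 by a gap test that chance passes in about 1 of 20 groups, and 9 of these 10 belong to the dKO libraries nearest to another time. They were Nfkbiz at 634 RPKM in dKO 0 h replicate 2, Nfkbiz at 314 and Rela at 64.0 in dKO 1 h replicate 2, Rel at 13.5, Rela at 31.1, Nfkbie at 39.0 and Bcl3 at 13.7 in dKO 2 h replicate 2, and Nfkb1 at 277 and Nfkbiz at 250.5 in dKO 6 h replicate 4. The other was Nfkbib at 33.0 RPKM in WT 0 h replicate 3.

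The LPS response at 6 h differed between the genotypes for Rel (0.54, larger in dKO) and Bcl3 (-0.77, smaller in dKO) by the limma test of the difference without the 5 libraries. With all 32 libraries neither was called.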

How the results depend on the processing

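Counts of members called (of 10) moved as follows. LPS at 2 h in dKO (10 called) gave 6 with no filter, 0 when the groups of the comparison alone were fitted, and 6 with the replicate number as a block. The 6 h against 1 h comparison in WT (5) gave 3 under median-of-ratios scaling, 3 with no filter, 10 with its groups alone, 10 without the 5 libraries and 9 without them under that scaling. In dKO (2) the same settings gave 1, 1, 5, 9 and 9. Genotype at 0 h (0) gave 6 without the 5 libraries and 4 with that scaling added. At 1 h (0) it gave 1 with its groups alone, 4 without the 5 and 1 with scaling added. At 2 h (1) it gave 0 under scaling, 0 with no filter, 0 with its groups alone, 4 without the 5 and 0 with scaling added. At 6 h (1) it gave 0 under scaling, 2 with its groups alone, 5 without the 5 and 2 with scaling added. The difference in response at 6 h (0) gave 1 with its groups alone, 2 without the 5 and 4 with scaling added.

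The replicate block gave 2 calls for 6 h against 1 h in WT, 1 in dKO and 0 for genotype at 2 h, and, beside these and LPS at 2 h in dKO, moved no other count by over 1.5 times. Deviations of libraries with the same number correlated over 0.1 in 16 of 24 pairs within WT, 5 of 24 within dKO and 1 of 16 between the genotypes. The main fits did not treat the numbers as pairs, so the correlation within WT is taken into account only by the replicate block.

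Changes of sign against all 32 libraries arose without the 5: Rel at 0 h (-0.55, and -0.47 with scaling added), Nfkbia at 0 h (-0.25), Nfkbiz at 1 h with scaling added (0.26), and the Rel difference at 6 h (0.54, and 0.60 with scaling added). The cause was not tested. Of the member values under alternatives 3230 kept their direction and call, 86 gained and 148 lost a call and 6 reversed. The first number includes 114 sign changes where neither value was called.

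Leaving out 1 library gave 8 to 10 calls for LPS at 1 h in dKO, 5 to 10 at 2 h and 9 to 10 at 6 h, 2 to 3 for 6 h against 1 h in WT and 1 to 3 in dKO, and 0 to 4 for genotype at 2 h. Without the 5 libraries it gave 3 to 8, 1 to 5, 0 to 3 and 3 to 5 for genotype at 0, 1, 2 and 6 h, and 0 to 1, 0 to 3 and 1 to 7 for the difference in response at 1, 2 and 6 h. Where this left 1 dKO library at 2 h, that library was assumed to vary like the other groups. Without read counts, what depth limits could not be computed.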
